A study of Rattus norvegicus with 10 samples.

Results

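The window examined here holds the tiles on chromosome 1 from 176940001 to 177341000 of mRatBN7.2 (rn7), which is 200 kb on either side of an intronic tile of Prkcb at 177140001 to 177141000. A tile is a stretch of 1000 bp, and its value in a rat is the percentage of methylated calls at its covered CpGs. The central tile was chosen by its values, namely its difference between the lines in these same rats, so that difference is described and not tested. Of 401 tile positions in the window, 37 held values, out of 18140 tiles on chromosome 1 and 176032 in the whole table. The values came from reduced representation bisulfite sequencing (RRBS), which reads CpG-rich fragments cut by MspI. They covered the hippocampus of 4 HCR rats (rats 1, 11, 15 and 19) and 6 LCR rats (rats 12, 18, 22, 24, 26 and 30), lines bred for high and for low running capacity. All were females of generation 44, aged 23 to 24 months, on standard chow, without running wheels or exercise training. By the study's methods, all animals were used for physiological and behavioral testing before tissue collection. This included treadmill running for maximal oxygen uptake and a water maze, and the study names no other treatment. The lines differ in their whole breeding history, so any other trait that separates them cannot be told apart from running capacity.

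Prkcb encodes protein kinase C beta, a conventional protein kinase C (PKC). Calcium and diacylglycerol together bring such an isoform to the membrane and switch it on, after phospholipase C has cleaved membrane lipid downstream of a receptor. It phosphorylates serine and threonine residues of many proteins, is made as splice forms that differ at the carboxyl end, is best known for B cell receptor signaling, and in mice is needed for fear conditioning, which depends on the hippocampus. Methylation of CpGs in a gene body has no fixed relation to transcription, and RRBS measures neither RNA nor protein. Among protein-coding genes of the RefSeq order on the GRCr8 assembly, Prkcb lies between Chp2, a calcineurin-like calcium-binding protein, and Cacng3, an auxiliary subunit of AMPA receptors. Boundaries of these genes on mRatBN7.2 were not used here. The study's tables place the central tile in an intron of Prkcb and the tile from 177055001 to 177056000 in an exon away from CpG islands. Both come from tables of tiles that the study selected on these rats. The tiles between them lie inside the gene, and the other tiles are given by distance alone.

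The deposited values are percentages with no read counts, so the depth behind a tile is unknown. Each value averages all cell types of the tissue, so a change in the mixture of cells and a change within cells cannot be told apart. The table had values for 165792 to 174009 tiles per HCR rat and 157010 to 170745 per LCR rat. In the window, 28 of 37 tiles had a value in every rat, and the other 9 lacked 15 values in all, 3 in HCR and 12 in LCR rats. LCR rat 18 stood apart on the second principal component of the whole table (12.2% of the variance), at 300.1 against 3.21 to 57.3 in the other LCR rats, and the named results that moved most without it are given with that value.

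Most tiles of the window were methylated to an intermediate level, with highly methylated tiles and a few short stretches of little methylation among them. Averaged over all rats, 1 tile lay under 5%, 6 lay from 5 to 20%, 21 from 20 to 80% and 9 at 80% or more. Intermediate levels, from 20 to 80%, made up 56.8% of the window tiles against 39.96% of all tiles tested, and tiles under 5% made up 2.70% against 15.4%. The lowest level was 2.83%, at -191 kb. Tiles near 5% followed at -92 kb (5.64%), +60 kb (5.31%), +61 kb (5.24%) and +89 kb (5.38%). A distance is that of a tile's start from the start of the central tile, and a minus sign marks the side of lower coordinates. The highest level was 94.0%, at -139 kb.

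Levels changed sharply between tiles that touch. The tile at -138 kb averaged 43.2% beside 94.0% at -139 kb and was lower in 10 of 10 rats, with an average difference of -50.7 points (SD 12.9). The tile at -189 kb lay 39.1 points (SD 11.8) above its neighbor at -190 kb in all 8 rats with both values. The tile at -144 kb lay 30.2 points (SD 11.3) above the tile at -145 kb in 10 of 10 rats. At +60 and +61 kb, by contrast, the 2 adjoining tiles differed by -0.07 points on average (SD 7.27), less than their spread between rats. Of the 7 adjoining pairs, 6 had the same order in every rat with both values.

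**Figure D1:**
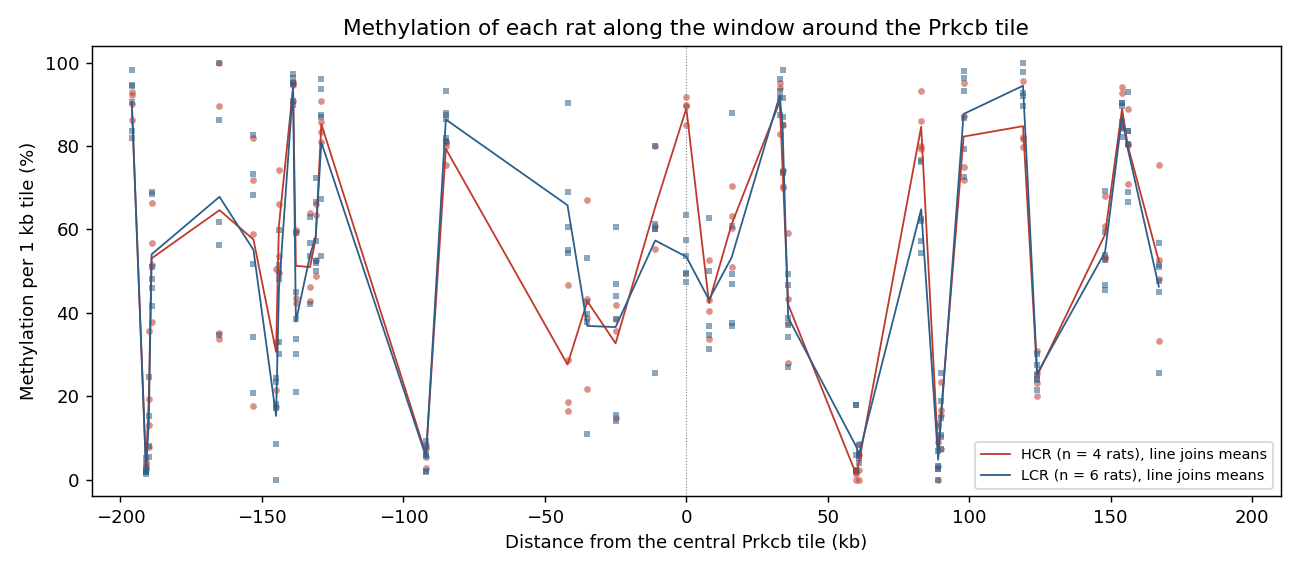
Methylation in percent (vertical axis) of each of 37 tiles against distance in kb from the central Prkcb tile (horizontal axis). Circles are 4 HCR rats, squares are 6 LCR rats, and lines join the line means. The line means are farthest apart at 0 kb (89.0% in HCR and 53.4% in LCR rats), at -42 kb (27.6% and 65.8%) and at +83 kb (84.6% and 64.8%).

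The central tile was highly methylated in HCR rats and intermediate in LCR rats. HCR rats 1, 11, 15 and 19 had 91.7%, 85.1%, 89.5% and 89.7% methylation. In LCR rats the lowest value was 47.4%, the median 51.5% and the highest 63.4%. The lines did not overlap: the lowest HCR rat lay 21.7 points above the highest LCR rat. The means were 89.0% ± 2.80 (SD, n = 4) and 53.4% ± 6.08 (SD, n = 6), a difference of 35.6 points. In HCR rats the tile ranked 4 by level among the 37 tiles of the window, and in LCR rats it ranked 20. Its difference was the same, 35.6 points, without LCR rat 18, and was 33.7 points after the mean of each rat over the whole table had been set to a common value.

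Rats of 1 line were close to each other at the central tile. The SD within lines was 5.10 points, against a median of 9.07 over the window. A small spread within lines favors the choice of a tile by its line difference, so this value is only a description. The spread of LCR rats ran from 47.4% in rat 24 to 63.4% in rat 26.

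Within the gene body the largest difference of any other tile ran the opposite way and was larger in size than that of the central tile. It was at -42 kb (177098001 to 177099000), a tile singled out after its values were seen. HCR rats 1, 11, 15 and 19 had 18.6%, 28.7%, 16.4% and 46.7% methylation there. LCR rats 12, 18, 24, 26 and 30 had 55.0%, 54.2%, 90.3%, 60.5% and 69.0%, and LCR rat 22 had no value and entered neither the mean nor the fit. No HCR rat reached the level of any LCR rat, with 7.57 points between the nearest. The means were 27.6% ± 13.8 (SD, n = 4) and 65.8% ± 14.9 (SD, n = 5). The difference of -38.2 points had a standard error of 9.85 and missed the limit of the test (limma adjusted p = 0.389). It ranged from -44.6 to -32.1 points as each rat was left out in turn, and was -41.1 points without LCR rat 18. HCR rat 19, the highest of its line here, did not stand out at the central tile.

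The exonic tile of Prkcb, at -85 kb, was highly methylated in both lines and a little lower in HCR rats. HCR rats 1, 11, 15 and 19 had 75.4%, 80%, 81.0% and 80.9%. LCR rats ranged from 81.1% through a median of 86.9% to 93.3%. The lines did not overlap, but only 0.11 points lay between HCR rat 15 and LCR rat 22. The means of 79.3% ± 2.68 (SD, n = 4) and 86.3% ± 4.45 (SD, n = 6) differed by -7.02 points (SE 2.80, limma adjusted p = 0.643).

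The 3 other tiles between the exonic and the central tile did not separate the lines. At -35 kb the means were 42.8% ± 18.7 (SD, n = 4) for HCR and 36.8% ± 15.7 (SD, n = 5) for LCR rats. At -25 kb they were 32.7% ± 12.2 (SD, n = 4) and 36.6% ± 18.4 (SD, n = 6). At -11 kb they were 65.4% ± 13.0 (SD, n = 3) and 57.3% ± 19.7 (SD, n = 5). In each of these tiles the values of the lines overlapped, and the adjusted p of limma was 0.943, 0.961 and 0.927. The signs at -35 and -25 kb turned when single rats were left out, and the difference of 8.05 points at -11 kb came to 0.08 points without LCR rat 18, which had 25.5% there. The difference at -35 kb went from 5.91 to 9.98 points without that rat. LCR rat 24, at 10.9%, was the lowest of all rats at -35 kb.

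On the side of higher coordinates the tiles next to the central one did not separate the lines either. The tile at +8 kb averaged 42.4% ± 7.86 (SD, n = 4) for HCR and 43.1% ± 13.0 (SD, n = 5) for LCR rats. The tile at +16 kb averaged 61.2% ± 8.01 (SD, n = 4) and 53.3% ± 19.1 (SD, n = 6). The tile at +33 kb averaged 90.6% ± 6.83 (SD, n = 3) and 92.1% ± 3.61 (SD, n = 4). Their differences of -0.70, 7.98 and -1.50 points had adjusted p-values of 0.993, 0.910 and 0.960 by limma. Without LCR rat 24, which had 87.9% at +16 kb and 62.7% at +8 kb, the differences were 14.9 points at +16 kb and 4.20 points at +8 kb. Without LCR rat 18 they were 4.70 points at +16 kb, 1.01 points at +8 kb and -0.17 points at +33 kb. The 3 nearest tiles on each side of the central tile gave differences between -3.90 and 8.05 points, against 35.6 points at the tile itself. The next tile, at +34 kb, differed by -9.95 points (SE 5.33, limma adjusted p = 0.750), with overlapping values.

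**Figure D2:**
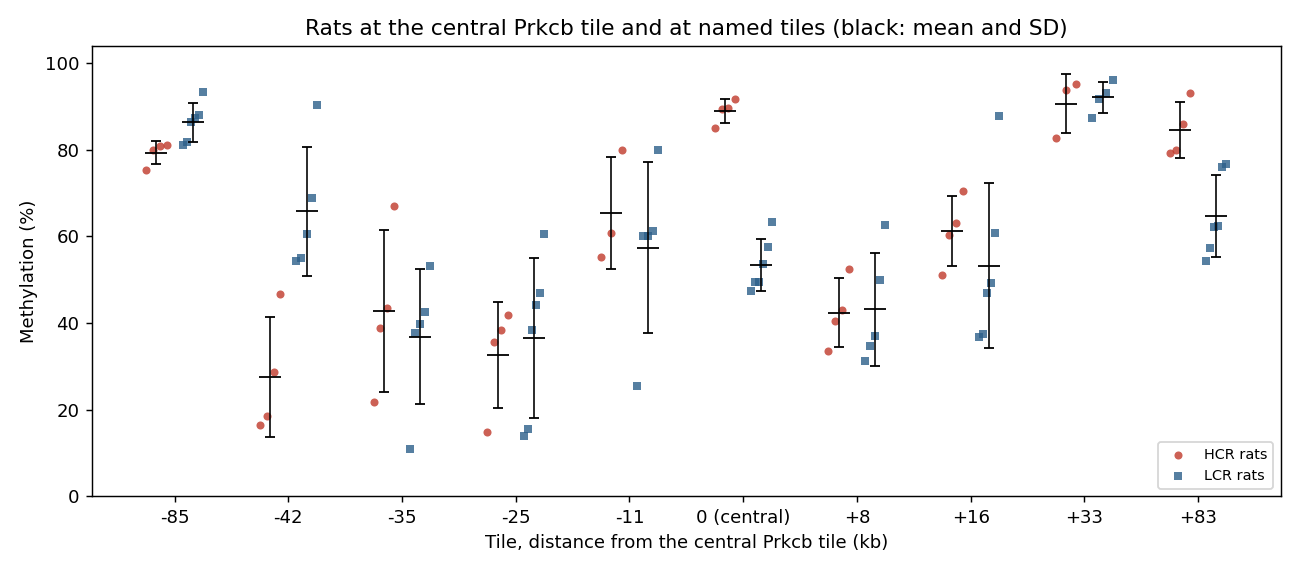
Methylation in percent (vertical axis) at the central Prkcb tile and at 9 other tiles of the window, named by distance in kb (horizontal axis). Circles are HCR rats and squares are LCR rats, spread sideways in order of level, and black marks give the mean and SD of each line. The lines are apart at 0, -85, -42 and +83 kb, by 21.7, 0.11, 7.57 and 2.59 points between the nearest rats, and overlap at the others.

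Besides the central and the exonic tile, only the tile at +83 kb (177223001 to 177224000) kept the lines apart among window tiles measured in all 10 rats. HCR rats 1, 11, 15 and 19 had 80%, 93.2%, 86.0% and 79.3%. LCR rats ranged from 54.3% through a median of 62.3% to 76.7%. The lowest HCR rat lay 2.59 points above the highest LCR rat. The means were 84.6% ± 6.45 (SD, n = 4) and 64.8% ± 9.48 (SD, n = 6), a difference of 19.8 points in the same direction as the central tile (SE 5.44, limma adjusted p = 0.417). It was 19.3 points without LCR rat 18. The tiles at +89 and +90 kb, which are lowly methylated, differed by 1.53 and 1.19 points.

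Besides the tiles at 0, -85, -42 and +83 kb, the lines overlapped in every window tile, with differences of up to 15.5 points in size. By limma on all tiles, where a call took an adjusted p below 0.1 and at least 5 points between the means, the central tile was the 1 called tile of 37, beside 152 of 176032 in the whole table (0.0863%). It was not called without HCR rat 1 or without HCR rat 19. Since the central tile placed the window, nothing is read from that count. Of the 36 other tiles, 0 were called by limma, and 0 with ordinary t statistics. At an unadjusted p under 0.05 limma gave 5 of the 36, against 7.19% of all tiles tested. At an unadjusted p under 0.005 with at least 5 points it gave 2 of them, at -42 and +83 kb, beside a background of 1.03%. Rats of the lines did not overlap in 3 of the 36, at -85, -42 and +83 kb, beside a background of 2.69%. These counts come from the contrast that placed the window and are given as a description.

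The sign of the differences was mixed. HCR rats were higher in 19 of the 36 other tiles and lower in 17, with a median difference of 0.63 points, against 64.7% of all tiles higher and a median of 1.01 points. Once all rats were given one common mean, 13 of the 36 were higher, with a median of -1.28 points, against 42.8% of all tiles higher and a median of -0.90 points. Within 50 kb of the central tile, HCR rats were higher in 4 of 9 other tiles, with a median difference of -0.70 points. In 21 of the 36 tiles the lines differed by less than 5 points, in 14 by 5 to 20 points, and in 1, at -42 kb, by more. The adjusted p of limma ran from 0.389 to 0.996 over the 36. Just inside the limits of the window, the tiles at -196 and +167 kb averaged 90.4% and 52.4% in HCR and 90.6% and 46.3% in LCR rats. Just outside, the tiles at -205 and +228 kb averaged 23.2% and 90.3% in HCR and 25.9% and 87.2% in LCR rats.

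**Figure D3:**
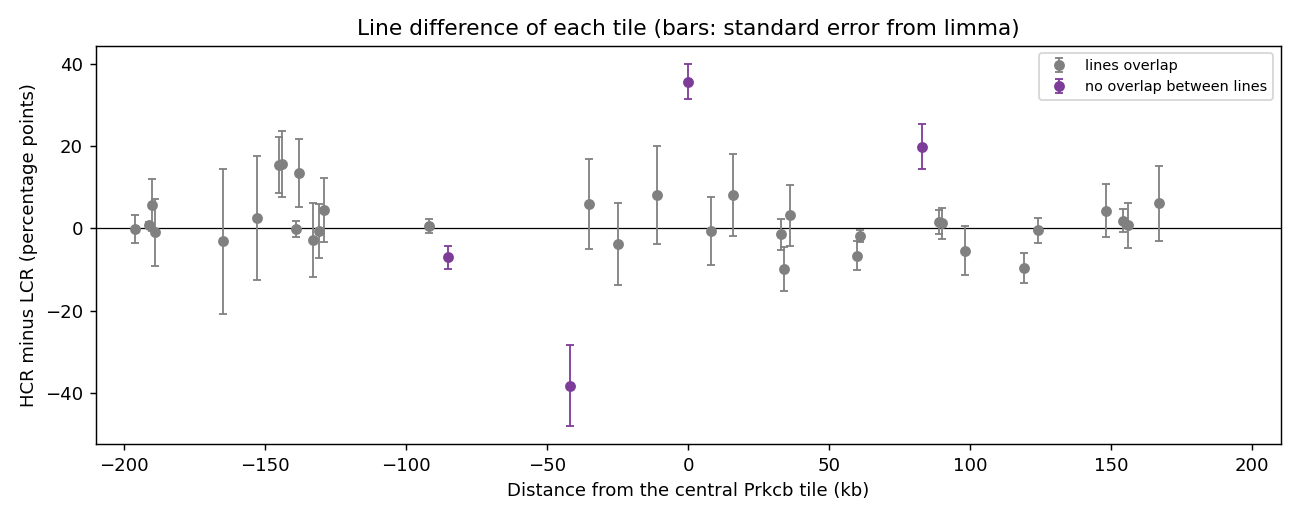
Difference in methylation, HCR minus LCR in percentage points (vertical axis), of 37 tiles against distance in kb from the central Prkcb tile (horizontal axis), with the standard error from limma as bars. Tiles whose rats do not overlap between lines are purple: 35.6 points at 0 kb, 19.8 at +83 kb, -7.02 at -85 kb and -38.2 at -42 kb.

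Some tiles varied widely between rats of 1 line. At -165 kb the SD within lines was 30.1 points, and 99.3% of tiles of like level had a smaller one. At -153 kb it was 25.7 points, with 96.2% smaller. In both tiles the lines overlapped, with means of 64.6% and 57.6% in HCR and 67.8% and 55.1% in LCR rats. The range over all rats reached 60 points or more in 3 tiles, these 2 and the tile at -42 kb, against a median range of 28.3 points. At the other end, the tile at +124 kb held 24.9% ± 4.56 (SD, n = 4) for HCR and 25.4% ± 2.998 (SD, n = 6) for LCR rats, an SD within lines of 3.66 points, and 3.10% of tiles of like level had a smaller one.

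The tiles at -145, -144 and -138 kb had higher means in HCR rats with overlapping values, while the tile at -139 kb between them averaged 93.9% in HCR and 94.0% in LCR rats. At -145 kb HCR rats 1, 11, 15 and 19 had 21.4%, 33.1%, 17.4% and 50.5%, and LCR rats ran from 0% through a median of 17.7% to 24.3%. HCR rats 11 and 19 lay above every LCR rat, and HCR rats 1 and 15 lay among them. At -144 kb HCR rats had 53.7%, 74.3%, 49.5% and 66.2% in the same order, and LCR rats ran from 30.1% through 48.9% to 59.9%. HCR rats 11 and 19 were again the highest of all. The differences were 15.3 points (SE 6.76) at -145 kb, 15.5 points (SE 8.03) at -144 kb and 13.4 points (SE 8.27) at -138 kb, with adjusted p-values of 0.686, 0.740 and 0.790 by limma. At -145 kb the difference was 8.71 points without HCR rat 19, and 7.71 points when each rat's count of empty tiles entered as covariate. At -144 kb the difference was 18.4 points without LCR rat 18.

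Over the 10 rats, the tiles whose levels were most like those of the central tile were at +83 kb (Pearson r = 0.75), -145 kb (r = 0.52) and -144 kb (r = 0.49) of those measured in all rats. Once the mean of each line had been subtracted, r was -0.07, -0.20 and -0.44. The tile at -42 kb gave r = -0.855 over 9 rats, and -0.37 after subtraction. The tile at -85 kb gave r = -0.74, and -0.31 after subtraction. The tile at +34 kb, picked here after its values were seen, gave r = -0.67, and -0.77 after subtraction. These values are descriptions: the rats fall into 2 lines that differ at the central tile, and every tile of a rat comes from 1 library.

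The 28 fully measured tiles averaged 52.5% ± 3.87 (SD, n = 4) per HCR rat and 48.97% ± 3.17 (SD, n = 6) per LCR rat. HCR rats 1, 11, 15 and 19 had 47.9%, 55.2%, 50.6% and 56.1%, and LCR rats ran from 45.6% to 54.4%, so the lines overlapped. The difference of 3.48 points fell to 2.29 points without the central tile, beside 1.91 points for the mean over 126459 tiles of the whole table. It was not tested, since the central tile belongs to it.

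Other genes of PKC signaling were taken from 4 lists: 9 PKC isoforms, 16 genes of phospholipase C and its activators, 10 diacylglycerol kinases and 13 substrates and anchors of PKC. In the copy used, the study's tables place a tile at 5 of these 48 genes, Prkcb included. That copy is cut short, and a tile was matched only by the first gene named for it. Other genes of the lists may therefore have tiles that were not seen. Those tables hold tiles the study selected on these same rats, so neither the direction nor the size nor the p of these tiles is independent evidence. Each of the 4 tiles at other genes was higher in HCR rats, with a median difference of 12.2 points. By limma 0 of the 4 were called, and 0 with ordinary t statistics. All 4 had an unadjusted p under 0.05, beside 7.19% of all tiles tested, a count their selection largely fixed.

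Among the isoforms, Prkcq encodes PKC theta, an isoform that needs diacylglycerol but not calcium and is known from T cells. Its exonic tile, on chromosome 17 from 67271001 to 67272000, had 28.9%, 48.6%, 28.2% and 31.7% in HCR rats 1, 11, 15 and 19 and 9.42% to 26.5% in LCR rats, with a median of 21.9%. The lines did not overlap, by 1.71 points, and HCR rat 11 stood well above the others. The means were 34.3% ± 9.62 (SD, n = 4) and 19.7% ± 7.22 (SD, n = 6), with a limma adjusted p = 0.577.

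Upstream of PKC, Plcd1 encodes phospholipase C delta 1, which releases diacylglycerol. Its intronic tile, on chromosome 8 from 118813001 to 118814000, had 17.2%, 18.2%, 20.8% and 22.4% in HCR rats 1, 11, 15 and 19, and 6.99% to 18.5% in LCR rats, with a median of 11.7%. LCR rat 24 lay among the HCR rats. The means of 19.7% ± 2.39 (SD, n = 4) and 11.7% ± 3.96 (SD, n = 6) differed by 7.97 points (SE 2.15, limma adjusted p = 0.403). Dgkg encodes diacylglycerol kinase gamma, which removes diacylglycerol by phosphorylation. Its intronic tile, on chromosome 11 from 78478001 to 78479000, averaged 67.6% ± 3.43 (SD, n = 4) for HCR and 55.5% ± 6.39 (SD, n = 6) for LCR rats, with overlapping values and a limma adjusted p = 0.666.

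Among the substrates, Marcksl1 encodes a MARCKS-like protein that PKC phosphorylates at the membrane. The promoter tile of Marcksl1, on chromosome 5 from 141850001 to 141851000, averaged 32.4% ± 5.41 (SD, n = 4) for HCR and 20.04% ± 5.73 (SD, n = 6) for LCR rats. HCR rats 1, 11, 15 and 19 had 27.0%, 29.3%, 34.2% and 39.1%, and LCR rats ran from 11.5% through a median of 21.4% to 27.6%. The lines overlapped only through LCR rat 24 and HCR rat 1, and the limma adjusted p was 0.513. The tiles of these genes most like the central Prkcb tile over 10 rats were those of Plcd1 (r = 0.75), Dgkg (r = 0.75) and Marcksl1 (r = 0.70). After subtraction of the line means these values were -0.06, 0.01 and -0.26. These tiles and the central tile were all selected by the difference between the lines, which largely fixed r over all rats.

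**Figure D4:**
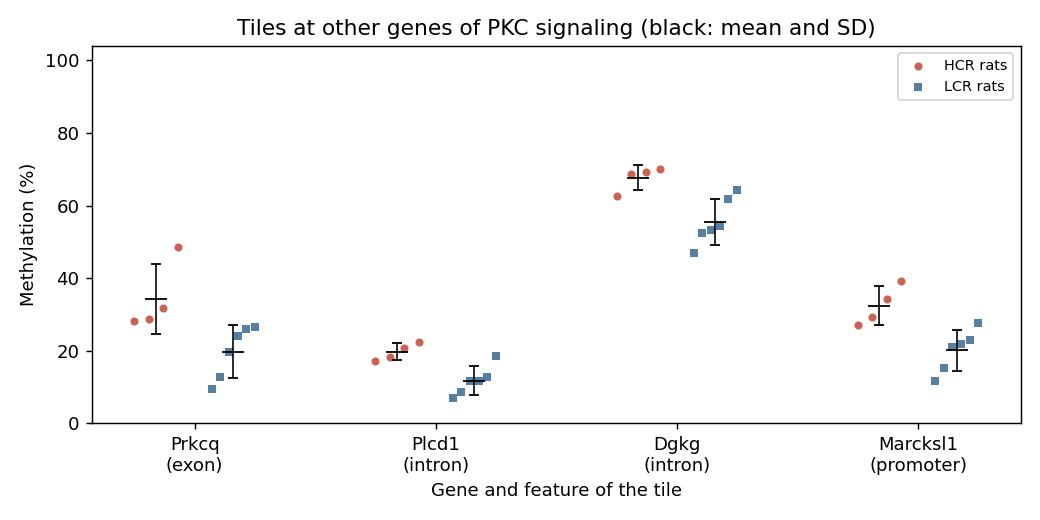
Methylation in percent (vertical axis) at tiles of 4 other genes of PKC signaling (horizontal axis, with the feature of each tile). Circles are HCR rats and squares are LCR rats, spread sideways in order of level, and black marks give the mean and SD. The lines are apart at Prkcq, by 1.71 points, and overlap at the other 3.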

How the data were processed

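Hippocampal RRBS libraries of 10 rats were compared, 4 HCR and 6 LCR, grouped by the sample labels. Each deposited value is a percent methylation per 1000 bp tile. Per the labels and the study's methods, the authors used FastQC and MultiQC for quality, Trim Galore 0.6.10 for trimming, and Bismark over Bowtie2 for alignment to the mRatBN7.2 (rn7) build. In methylKit they filtered CpGs on coverage and kept tiles with at least 3 covered CpGs and 3 rats per line. The study left out other HCR libraries on quality. An empty cell was taken as no value.

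Lines were compared on percent values with limma (3.58.1, under R 4.3.3), using a trended prior variance without covariates, and Benjamini-Hochberg adjustment ran over 176032 tiles. The chi-square test of the study needs read counts and was not run. The fit was tested on simulated data. Python 3.11.15, NumPy 2.4.6, pandas 2.3.3 and Matplotlib 3.10.9 made the summaries.

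The window and the gene lists were chosen with earlier results of these data known. Tiles named were the central tile, the 3 nearest on each side, the exonic tile, up to 3 higher and 3 lower tiles without overlap and with a value in every rat, and the 3 most like the central tile by Pearson r, in the window and among the lists; a tile at -42 kb and others described for their level or spread were chosen after their values were seen. One gene of the lists is not reported here. Genes and features of tiles came from the study's tables, of which 1 is cut short in the copy used. Alternatives changed the scale, tiles, moderation, level of each rat, covariate and rats used.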

Additional observations from a re-analysis of the deposited data

Results flagged for a closer look

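In 71 sets of 4 to 6 rats of 1 line at 1 window tile, 1 rat lay far from the rest of its line in 2, and chance gives about 1 in 20. At -139 kb, the most methylated tile of the window, HCR rat 1 had 90.7%, below 94.7% to 95.4% in the other HCR rats, while LCR rats ran from 89.9% to 97.2%. At +119 kb, HCR rat 19 had 95.6%, above 79.7% to 82.1% in the other HCR rats, while LCR rats with a value ran from 89.7% to 100%. The means at +119 kb were 84.8% in HCR and 94.5% in LCR rats, with a limma adjusted p = 0.618, and HCR rats 1, 11 and 15 lay below every LCR rat.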

How the results depend on the processing

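The difference at the central tile ran from 32.9 points (quantile normalization) to 37.6 points over 18 alternatives, and from 34.4 to 37.6 points as each rat was left out. The number of called window tiles was 1, and 0 when each rat's count of empty tiles entered as covariate, where 7 tiles were called in the whole table in place of 152. It was 3 at an unadjusted p under 0.005. It ran from 0 to 1 as each rat was left out, with 0 without HCR rat 1 and without HCR rat 19, when the whole table gave 22 and 40. The tile called by adjusted p was always the central one, which placed the window, so these counts are only a description. Called tiles other than the central one numbered 0 in each of these 18 fits. In the gene lists 0 tiles were called, and 1, at Plcd1, at the unadjusted limit. Once all rats were given one common mean, calls in the whole table split into 66 higher and 73 lower, against 103 and 49. Signs turned at 4 of the 11 other named window tiles: at +33 kb, 1.45 points with the covariate; at -35 kb, -2.20 without HCR rat 11 and -0.58 without LCR rat 24; at -25 kb, 2.07 without HCR rat 15 and 0.89 without LCR rat 18; and at +8 kb, 2.24 without HCR rat 19, 1.01 without LCR rat 18 and 4.20 without LCR rat 24. As each rat was left out these tiles ran from -2.20 to 12.9 points at -35 kb, -8.42 to 2.07 at -25 kb, -4.09 to 4.20 at +8 kb and -3.07 to -0.17 at +33 kb. The median difference of the other window tiles turned from 0.63 to -1.28 points with one common mean, -0.49 with quantile normalization (10 of 27 higher), -0.58 with the covariate (17 of 36 higher), -0.63 without HCR rat 19 and -0.22 without LCR rat 30. Cause was not tested in any of these. Tiles with 3 values in a line gave no value when one of those rats was left out, and a gene body without its upstream part was not run, since gene boundaries on this build were not used. No paired analysis was possible because the lines share no replicate number.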
